A study of Mus musculus with 3 samples.

Results

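The genes described here encode the 10 integrin subunits Itga1, Itga2, Itga3, Itga5, Itga6, Itga9, Itgav, Itgb1, Itgb3 and Itgb5, which build receptors for the extracellular matrix. They were found by their gene symbol in a table of 17583 genes, and all 10 were present, among 24 integrin subunits that the table lists. The RNA was precipitated through a ribosome tag meant for cardiac endothelial cells. It came from 3 EC-RiboTag mice (Cdh5-CreERT2;Rpl22tm1.1Psam) on a C57BL/6 background, which the labels call biological replicates of a single group. In these animals tamoxifen-induced Cre, driven by the Cdh5 promoter and therefore limited to Cdh5-expressing cells, puts an HA tag on the ribosomal protein Rpl22, and an antibody to the tag pulls down the ribosomes with the RNA they carry. According to the labels the hearts were taken at day 7 after coronary ligation, whereas the study's RiboTag methods mention no infarction, and the labels do not spell out the Rz of the titles. The study abbreviates the remote zone of infarcted hearts as RZ, also for EC-RiboTag samples taken 7 days after infarction and measured by qRT-PCR. Nothing in its text ties these libraries to that zone. Age and sex of these animals are not given in the labels. No second condition and no input library were analysed here, so the values are levels in the precipitated RNA, and neither enrichment over the heart nor an effect of ligation can be read from them.

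Integrins are heterodimers of an alpha and a beta subunit that span the plasma membrane. The pairing sets which matrix protein is bound, and the short tails inside the cell connect the receptor to talin, kindlin and the actin cytoskeleton. In endothelium, integrins attach the cells to their basement membrane, and they are known to take part in vessel sprouting, in lumen formation and in the response to flow.

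The deposited values are normalized read counts, and the libraries rested on about 7319000, 6755000 and 7565000 reads in mice 1, 2 and 3. The study's methods state that duplicate reads were removed before counting. With single reads, such removal limits the count that a transcript of a given length can reach. Levels of the highest genes per kb may therefore be too low. Fold differences between high and low genes may be too small, and shares and sums shifted. The extent of this was not tested. Because a longer transcript yields more reads, levels of different genes were compared as normalized count per kilobase (kb) of the Ensembl canonical transcript. Among 14395 genes whose mean normalized count reached 10, the median was 106 per kb, and the top 10% of these genes began at 366 per kb. On this scale 6 of the 10 integrin subunits lay above the median gene (7 with the length of all annotated exons, where Itga3 joined them), and Itga6 and Itgb1 lay in the top 10%. Itga5 was also in the top 10% with the length of all annotated exons, and Itga1, Itga5 and Itga9 were without division by length. The median of the 10 subunits was 193 ± 19.0 per kb (SD, n = 3 mice). The 10 subunits together made up 92.9 ± 0.66% of the summed level per kb of the 24 integrin subunits in the table.

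Itga1 and Itga2 encode the alpha subunits of the collagen receptors α1β1 and α2β1, the former with a preference for basement membrane collagen IV and the latter best known from platelets and epithelium. The normalized count of Itga1 (chr13:115089632-115238500 of GRCm39, minus strand) was 2539 in mouse 1, 2249 in mouse 2 and 2582 in mouse 3, the order kept for all values below. These values lay close together, with mouse 2 the lowest, and their mean of 2457 ± 181 (SD, n = 3) placed Itga1 at rank 93 of the 17583 genes by count. The canonical transcript of Itga1 is the longest of the 10, with 11144 bases in 29 exons, and per kb the level was 220.4 ± 16.3, rank 3703 of 17475 genes with a length. Of these bases 6.15% are shared on the same strand with the readthrough gene Gm49395, and since the authors left out reads that overlap several genes, reads from that stretch may be missing from its count.

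Itga2 (chr13:114969617-115068636, minus strand), the neighbour of Itga1 on chromosome 13, had normalized counts of 35, 110 and 103. Mouse 1 was far below mice 2 and 3, and the coefficient of variation (CV, the SD in percent of the mean) was 50.1%, the highest of the 10 subunits. This spread came from mouse 1, without which the CV of Itga2 was 4.65%, below that of 7 of the other subunits. These values rest on about 36, 104 and 107 reads, for which counting alone would give a CV of 11%. The 1313 genes within 1.5-fold of its mean had a median CV of 18.8%, and 5.71% of them varied more than Itga2. Per kb Itga2 was the lowest of the 10 subunits, with 11.6 ± 5.83. The level of Itga1 per kb exceeded that of Itga2 by 5.53, 3.70 and 4.00 on the log2 scale in the respective mice (mean 4.41 ± 0.98, 21.3-fold). Itga1 was thus higher in 3 of 3 mice, for which the two-sided exact sign-flip test gave p = 0.25, the smallest value 3 mice allow. Divided by the length of all annotated exons (exonic length), the difference was 3.48 (11.2-fold).

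The laminin receptor subunits were also unequal. Itga6 encodes the alpha subunit of the laminin receptors α6β1 and α6β4, and Itga3 that of α3β1, which prefers laminins with the alpha 5 chain. Itga6 (chr2:71575960-71688760, plus strand) had normalized counts of 2738, 2846 and 2838. The 3 mice were nearly equal, with a CV of 2.14%, and 86.8% of the 311 genes within 1.5-fold of its mean varied more. Whether the removal of duplicate reads had a part in this small spread was not tested. With a mean of 2807 ± 60.2 Itga6 ranked 50 by count, and with 636 ± 13.6 per kb it ranked 208 of 17475 (874 with exonic length).

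Itga3 (chr11:94935300-94967627, minus strand) had normalized counts of 311, 344 and 411, with mouse 3 the highest and a mean of 355 ± 51.0. Its level of 71.6 ± 10.3 per kb lay below the median gene, but with exonic length it lay above it, with 61.0 ± 8.75 against 56.4 per kb. Itga6 exceeded Itga3 per kb by 3.16 ± 0.18 on the log2 scale (8.95-fold), in 3 of 3 mice (exact sign-flip test, p = 0.25), and by 2.02 (4.07-fold) with exonic length. Of the summed level per kb of the 7 alpha subunits, Itga6 made up 44.4 ± 2.30% and Itga3 4.97 ± 0.37%. The share of Itga6 depends on the length used: divided by the length of all annotated exons it was 29.2%, because the annotated exons of Itga6 together span 11382 bases and its canonical transcript 4413.

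**Figure D1:**
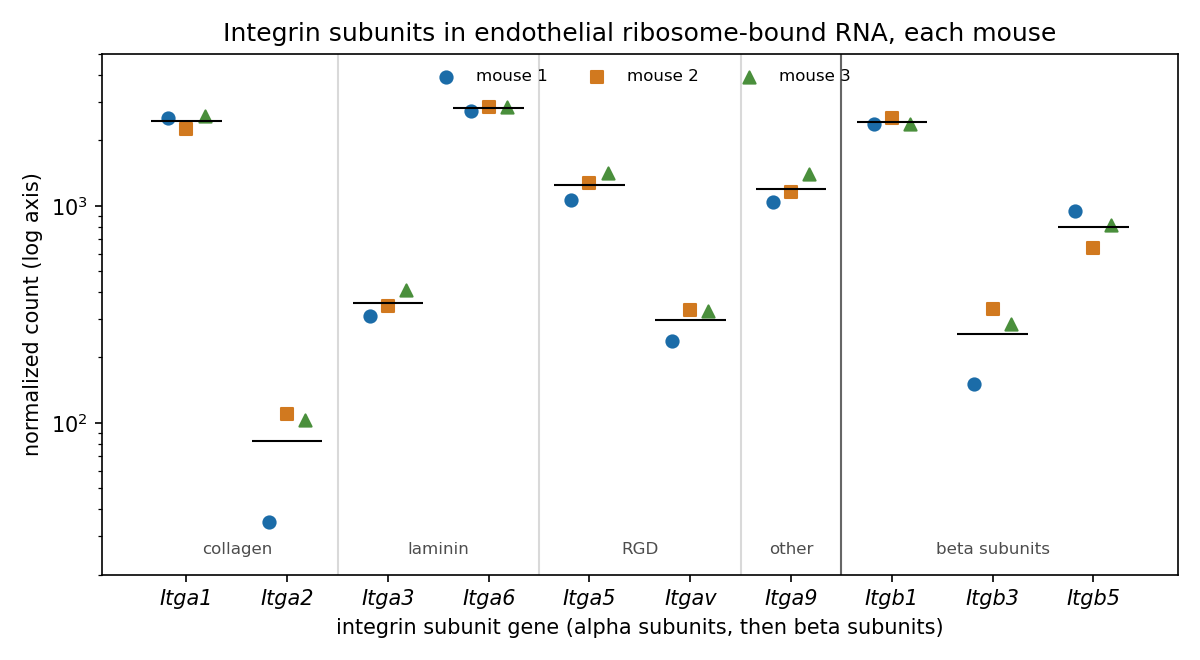
Normalized read count (log axis) of each integrin subunit in the 3 mice, with circles, squares and triangles for mice 1, 2 and 3 and a bar at the mean; alpha subunits are grouped by ligand and the beta subunits stand on the right. Itga6, Itga1 and Itgb1 lie between 2249 and 2846 in every mouse, whereas Itga2 lies at 35, 110 and 103.

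Itga5 encodes the alpha subunit of the fibronectin receptor α5β1, Itgav that of a group of receptors for vitronectin, fibronectin and other proteins with an RGD motif, and Itga9 that of α9β1, a receptor for tenascin C and other ligands with a role in lymphatic valves. Itga5 (chr15:103252713-103275190, minus strand) had normalized counts of 1062, 1274 and 1410. Mouse 1 was the lowest and mouse 3 the highest, with a mean of 1249 ± 175, and the level was 285 ± 40.0 per kb. Itga9 (chr9:118435758-118730071, plus strand) showed the same order of mice, with 1045, 1157 and 1393. Its mean was 1198 ± 178, close to that of Itga5 by count, but its canonical transcript of 7057 bases is longer than the 4382 bases of Itga5, and per kb the level of Itga9 was 169.8 ± 25.2. Itga5 exceeded Itga9 per kb by 0.75 ± 0.07 on the log2 scale in 3 of 3 mice (exact sign-flip test, p = 0.25), and without division by length by only 0.06.

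Itgav (chr2:83554741-83637260, plus strand) had normalized counts of 239, 330 and 328. Mice 2 and 3 were nearly equal and mouse 1 was lower, with a mean of 299 ± 52.0. Per kb, Itgav reached 40.4 ± 7.03, the second lowest level of the 10 subunits. On the log2 scale the ratio of Itgav to Itga5 per kb was -2.91, -2.70 and -2.86 in the individual mice (mean -2.82 ± 0.11), so that Itga5 was higher in 3 of 3 mice (exact sign-flip test, p = 0.25). The mean ratio was -3.28 with exonic length and -2.07 without division by length. The fibronectin receptor subunit Itga5 made up 19.8 ± 1.5% of the summed alpha level per kb, and the RGD receptor subunit Itgav 2.81 ± 0.36%.

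Among the beta subunits, Itgb1 is the common partner of most alpha subunits, whereas Itgb3 and Itgb5 pair with Itgav. Itgb1 (chr8:129412135-129459681, plus strand) had normalized counts of 2376, 2546 and 2378. Mice 1 and 3 were almost equal and mouse 2 slightly higher, the CV was 4.01%, and the mean of 2433 ± 97.6 ranked 97 by count. Per kb, Itgb1 reached 486 ± 19.5, rank 615 (173 with exonic length).

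Itgb5 (chr16:33650035-33769708, plus strand), which forms the vitronectin receptor αvβ5, had normalized counts of 946, 638 and 818. It was the only one of the 10 subunits with its highest value in mouse 1, and the level per kb was 241 ± 46.5. Itgb3 (chr11:104498826-104561302, plus strand), the beta subunit of αvβ3 on endothelium and of αIIbβ3 on platelets, had 151, 334 and 285. Mouse 1 had less Itgb3 than either other mouse, the CV was 36.9% (11.2% without mouse 1), and the level per kb was 44.4 ± 16.4.

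The summed level per kb of the beta subunits consisted of Itgb1 to 63.1 ± 3.53%, of Itgb5 to 31.2 ± 5.5% and of Itgb3 to 5.78 ± 2.21%. Itgb1 exceeded Itgb3 by 4.18, 3.14 and 3.27 on the log2 scale (mean 3.53 ± 0.57, 11.5-fold). It exceeded Itgb5 by 0.74, 1.41 and 0.95 (mean 1.03 ± 0.34). Itgb5 in turn lay above Itgb3 by 2.5 ± 0.87. Each of these differences per kb had the same sign in 3 of 3 mice (exact sign-flip test, p = 0.25 each). The level of Itgb5 per kb was 10.9-fold that of Itgb3 in mouse 1, where Itgb5 was highest and Itgb3 lowest, and 3.32-fold and 4.99-fold in mice 2 and 3. With exonic length, Itgb5 exceeded Itgb3 by 1.61 on the log2 scale (3.05-fold), and Itgb1 exceeded Itgb5 by 1.86 (3.64-fold). On that scale Itgb1, Itgb5 and Itgb3 had 408 ± 16.3, 113 ± 21.9 and 38.8 ± 14.3 per kb. Their shares of the sum thus also depend on the length used.

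Per kb, the order of the 10 subunits was Itga6, Itgb1, Itga5, Itgb5, Itga1, Itga9, Itga3, Itgb3, Itgav and Itga2. Of the 9 pairs of neighbours in this order, 6 were separated by a gap that exceeded both SDs. Itga5 and Itgb5, Itgb5 and Itga1, and Itgb3 and Itgav did not. Of all 45 pairs, 42 kept a single order in the 3 mice, and the smallest adjusted p was 0.268 (exact sign-flip test, Benjamini-Hochberg over 45 pairs). Divided by the length of all annotated exons, Itgb1 came first with 408 ± 16.3 per kb and Itga6 next with 247 ± 5.29, so the order of this leading pair depends on the length used. Itga9 also passed Itga1 and Itgb5 on that scale, with 155 ± 23.0 per kb against 115 ± 8.49 and 113 ± 21.9, and Itga1 and Itgb5 changed places within their spread. These 4 of the 45 pairs turned with exonic length, and 5 turned without division by length.

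**Figure D2:**
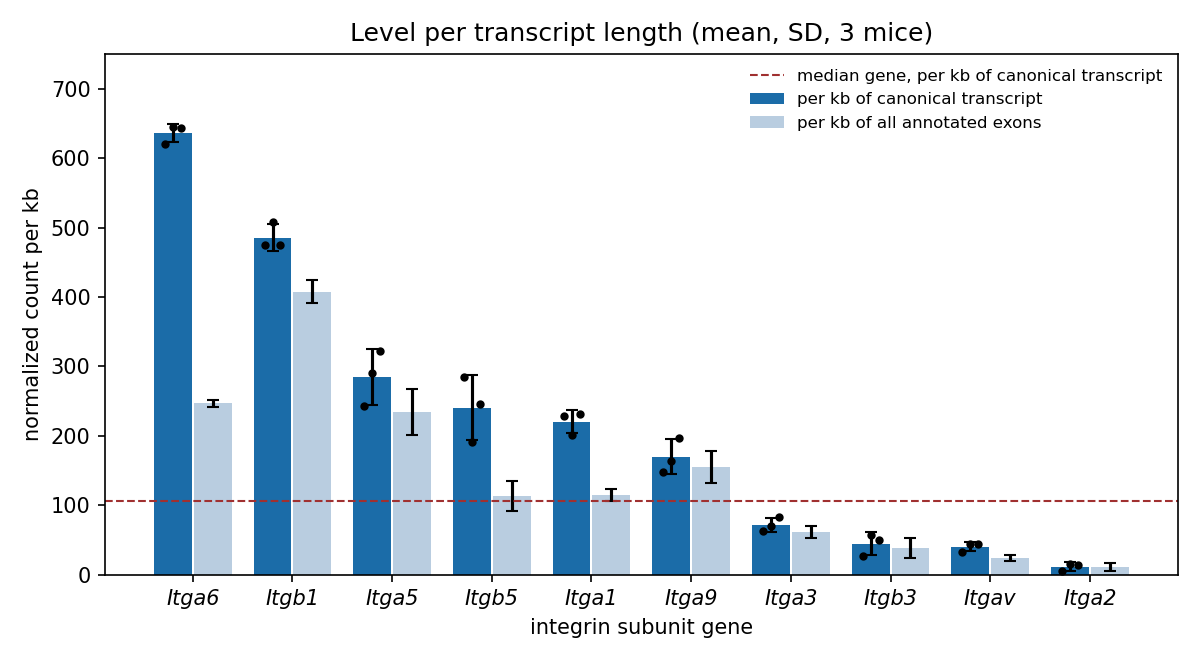
Normalized count per kb of the canonical transcript (dark bars, with points for the 3 mice) and of all annotated exons (light bars) for each integrin subunit; bars are means and error bars SD (n = 3 mice), and the dashed line marks the median gene at 106 per kb of canonical transcript. The 6 dark bars on the left stand above the line and the 4 on the right below it.

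The levels of possible partners were set side by side per kb, as RNA only, since the amount of receptor at the cell surface was not measured. The 6 alpha subunits other than Itgav have Itgb1 as their partner among these beta subunits, although Itga6 also pairs with Itgb4. Their levels summed to 1306, 1386 and 1491 per kb in mice 1, 2 and 3, against 474, 508 and 475 per kb of Itgb1. The sum was thus above Itgb1 in every mouse, 2.88 ± 0.23 times its level. For Itgav only Itgb5 and Itgb3 were counted, and other possible beta partners, Itgb1 among them, were left out. On this count the balance lay on the other side, since Itgb5 and Itgb3 together reached 7.28 ± 2.08 times the level of Itgav (3.63 ± 0.85 times without division by length). Over all members the 7 alpha subunits had 1.86 ± 0.15 times the summed level of the 3 beta subunits. This ratio was 1.52 ± 0.14 with exonic length and 2.42 ± 0.16 without division by length.

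The spread between mice was unequal among the subunits. Of the 9 subunits with a mean normalized count of at least 200, only Itgb3 had a CV over 20%, beside 749 of 9358 genes of such a mean (8.00%). The median CV of these 9 subunits was 14.3%, and that of the 9358 genes 7.37%. Without mouse 1, 2 or 3 the median of the subunits was 9.75, 19.6 and 8.57%, beside 6.02, 6.92 and 5.71% for all genes of such a mean. Itga6 and Itgb1 varied less than most genes of like level, whereas 4.92% of the 2927 genes within 1.5-fold of the mean of Itgb3 varied more than Itgb3, and 5.03% of 3820 more than Itgb5. Genes of like level were matched by count and not per kb, and a part of duplicate removal in the low spread of Itga6 and Itgb1 was not tested. The count of variable subunits depends on each mouse: it was 0 without mouse 1, 3 without mouse 2 (Itgb3, Itgav and Itga9) and 3 without mouse 3 (Itgb3, Itgav and Itgb5).

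Mouse 1 held the lowest value for 8 of the 10 subunits. Among genes whose mean reached 200, this was so for 7 of 9 subunits, beside 32.2% of all genes. The exceptions were Itga1 and Itgb5, which were lowest in mouse 2. Compared with the mean of the other mice, mouse 1 differed on the log2 scale by -1.61 for Itga2, by -1.04 for Itgb3, by -0.46 for Itgav, by -0.34 for Itga5, by -0.29 for Itga9 and by -0.28 for Itga3. It was above that mean by 0.38 for Itgb5 and by 0.07 for Itga1. For Itgb1 and Itga6 the difference was only -0.05 each. In such bulk RNA, fewer cells of a type and less RNA per cell cannot be told apart.

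**Figure D3:**
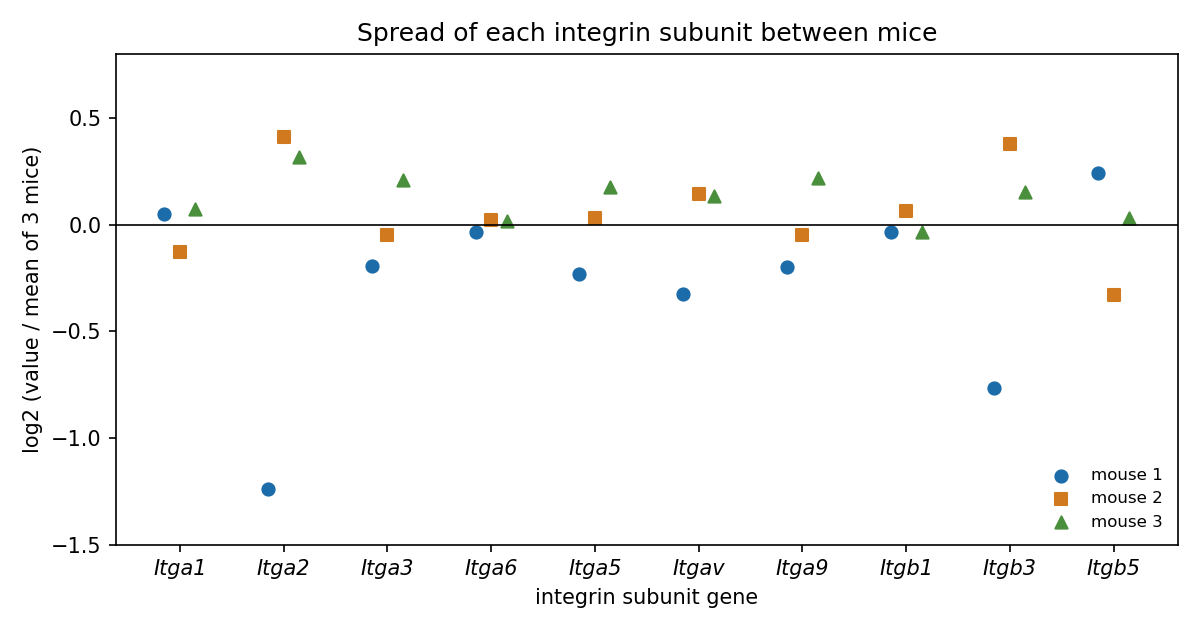
Log2 ratio of the normalized count in each mouse to the mean of the 3 mice for each integrin subunit; circles, squares and triangles are mice 1, 2 and 3, and the line at 0 is the mean. Mouse 1 is the lowest point for 8 of the 10 subunits and lies farthest from the mean for Itga2 and Itgb3, while Itga6 and Itgb1 are tightly grouped.

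Marker genes of the cell types of the heart were read in the same libraries, and their order within a list is that per kb of canonical transcript, which exonic length changes in several lists. All 12 endothelial markers were in the top 10% per kb of canonical transcript (10 of 12 with exonic length, without Emcn and Egfl7), led by Eng, Pecam1 and Esam on the former scale and by Cldn5, Cdh5 and Tie1 on the latter. Emcn was the lowest of them per kb of canonical transcript, with 461 ± 16.9. They summed to normalized counts of 28759, 27701 and 27593, with Flt1 the most abundant and none at 0. Of the cardiomyocyte markers, 6 of 10 were in the top 10% per kb of canonical transcript and 4 of 10 with exonic length. On the former scale Myl2 (819 ± 78.5), Tnnt2 (769 ± 28.7) and Myl3 (651 ± 55.8) led, and Myl2 and Eng (809 ± 5.82) differed by less than the SD of Myl2. Removal of duplicate reads may have held down such high levels, so equal abundance of these genes cannot be read from them. With exonic length Myl2 had 179 ± 17.2 and Eng 362 ± 2.60 per kb, and Myl2 and Tnnt2 were outside the top 10%. The 10 markers summed to 19615, 20838 and 23724, and none was at 0. Ttn was the most abundant by count, at rank 1 of all 17583 genes, and the lowest per kb.

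Several lists had lower sums in mouse 1, as had most of the subunits. The 9 fibroblast markers summed to 4619, 5586 and 5862 (Fbln2 the most abundant, followed per kb by Lum and Postn, Tcf21 the lowest), and 7 of the 9 were lowest in mouse 1. The 7 lymphatic markers summed to 3739, 4662 and 5421 (Flt4 the most abundant by count; Ccl21a, Flt4 and Lyve1 the highest and Reln the lowest per kb), and all 7 were lowest in mouse 1. The 8 mural markers summed to 1610, 2002 and 2274, led by Rgs5, Tagln and Acta2 per kb, with Myh11 the lowest, and 5 were lowest in mouse 1. No gene of these lists was at 0. Whether cells other than endothelium had a part in the levels of the subunits or in their spread was not tested.

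Most blood cell markers were below the median gene, C1qa with 138 ± 12.2 per kb of canonical transcript being the exception, which Lyz2 joined with exonic length. Of the leukocyte markers 8 of 10 were in the table and summed to 656, 932 and 895, with Lyz2 the most abundant by count and C1qa, Lyz2 and C1qb the highest per kb. Cd79a was at 0 in mouse 3, and Cd3e and S100a8 were missing from the table. For platelets, in which Itga2 and Itgb3 are also abundant, 5 of 7 markers were in the table and summed to 128, 102 and 108. Pf4 was the most abundant in the mean at 50, 51 and 50, although Itga2b was above it in mouse 1. Gp9 was at 0 in mouse 3, Gp1ba had 4, 2 and 19, and Gp1bb and Gp6 were missing. The 5 endocardial markers summed to 3073, 2308 and 4392, with Npr3 the most abundant, followed per kb of canonical transcript by Plvap and Cdh11, Hapln1 the lowest and none at 0.

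Of 17 further mouse integrin subunits 14 were in the table, and Itgad, Itgae and Itgb2l were missing. None of the 14 lay above the median gene, and together they reached 168 ± 18.9 per kb. Highest per kb of canonical transcript was Itga7, a laminin receptor subunit of muscle, with normalized counts of 224, 283 and 212, or 58.5 ± 9.28 per kb. Itgb4, which joins Itga6 in the receptor α6β4, followed with 185, 269 and 310, or 40.9 ± 10.2 per kb, a level below that of Itgb1 and Itgb5 and within 1 SD of that of Itgb3. In the mean, Itgb4 was ahead of Itga7 by count and with exonic length, although by count Itga7 was higher in mice 1 and 2. The range of the 14 thus overlaps that of the 10 subunits. In the mean, per kb of canonical transcript Itga7 lay above Itgb3, Itgav and Itga2, whereas it was below Itgb3 by count and with exonic length and below Itgav by count. The differences between Itga7 and Itgb3 were within the SD of Itgb3 on each scale. By count Itga7 was above Itgb3 in mouse 1 (224 against 151) and below it in mice 2 and 3. On the canonical scale Itgb4 lay above Itga2 and did not differ from Itgav beyond the spread, being lower in mice 1 and 2 and higher in mouse 3. With exonic length Itgb4 had 35.3 ± 8.83 per kb against 24.2 ± 4.21 for Itgav, whereas by count it was below Itgav in every mouse.

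Subunits of leukocyte integrins had low counts, with Itgb2 at 30, 32 and 33, Itgb7 at 25, 26 and 25, Itgam at 16, 31 and 32, Itga4 at 22, 40 and 46, Itgal at 19, 19 and 15, and Itgax at 11, 15 and 5 normalized counts. Itga2b, the alpha subunit of the platelet receptor αIIbβ3 and also part of the platelet list above, had 62, 45 and 38. Of the remaining subunits, Itgb6 had a mean of 46.3 ± 5.03, Itga10 of 33.0 ± 2.65, Itga8 of 24.0 ± 10.6, Itga11 of 14.7 ± 6.66 and Itgb8 of 13.3 ± 10.2. Itga10 and Itga11 encode further collagen receptor subunits, so that Itga1 was the only collagen receptor alpha subunit above the median gene per kb.

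Genes for the proteins that connect integrins with the cytoskeleton or accompany them in the membrane were high. Of 40 such genes 39 were in the table, 31 lay above the median gene and 17 in the top 10% (13 with exonic length), with a median of 337 ± 18.7 per kb. Cd47, a membrane partner of Itgav and Itgb3, was the highest with 1288 ± 40.0 per kb of canonical transcript, but with exonic length it had 239 ± 7.41 per kb and came after 8 other genes of the list, led by Lims2. On the canonical scale it was followed by the tetraspanin Cd81 with 781 ± 46.4 and the adaptor Lims2 with 779 ± 40.2. Parvg was the lowest, and Fermt1, the kindlin of epithelium, was missing, whereas Tns1 had the highest count of the list.

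Ligand genes were measured in the same RNA. All 10 collagen genes of the list were in the table, 3 above the median gene (4 with exonic length and 7 without division by length). All 10 were lowest in mouse 1, with sums of 8709, 10997 and 10781. Col4a1 and Col4a2, the collagen IV chains bound by the Itga1 receptor, led with 560.0 ± 22.9 and 443 ± 27.9 per kb, ahead of Col3a1 with 110.3 ± 37.4. Col6a3 was the lowest with 41.2 ± 18.0, within the spread of Col5a1 with 41.6 ± 14.7. With exonic length Col4a1 and Col4a2 also led, but Col1a1 was ahead of Col3a1 and Col6a2 was the lowest. Of the laminin chains 9 of 10 were in the table (Lama1 was missing), 5 above the median gene, with sums of 8549, 9356 and 10067. Lamb2, Lamb1 and Lamc1, chains of the laminins that Itga6 and Itga3 receptors bind, had 336 ± 5.79, 296 ± 25.6 and 282 ± 30.3 per kb (Lamc1 was ahead of Lamb1 with exonic length), and Lamb3 had the lowest level. Of 19 genes for RGD proteins and other ligands, 11 lay above the median gene, led by Mfge8 with 727 ± 30.9, Tgfb1 with 615 ± 14.0 and Ccn1 with 499 ± 18.7 per kb, with Edil3 the lowest. With exonic length Ccn1 came first, ahead of Mfge8 and Tgfb1, and Vwf had the highest count. Mfge8 and Tgfb1, as part of the latent TGF-beta complex, bind receptors that contain Itgav.

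The genes most like the leading subunits in level were searched over 3 mice among genes whose mean reached 200, by the root mean square difference of the log2 level per kb. For Itgb1 they were Rad21 (0.0088), Clic4 (0.016) and Sec13 (0.022), and 166 of 9355 genes came within 0.1. For Itga6 they were S1pr1 (0.015), Ssbp4 (0.031) and Timp3 (0.036), with 89 genes within 0.1. For Itga2, whose own mean of 82.7 lies below that minimum, this rule leaves out genes of like count, and Macir (0.65), Igsf9b (0.85) and Hmcn2 (0.89) are only the nearest of the more abundant genes. With 3 mice these likenesses rest mainly on the level itself.

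The tails of the subunits share features on which their choice did not rest, and their coding bases are shown because the alpha and beta subunits join and bind talin and kindlin there. The motif known as GFFKR, next to the membrane in alpha tails, was searched in the canonical coding sequence of each alpha subunit, with arginine also accepted for its lysine, and was found 1 time in each of the 7. The capitals mark its codons, in lower case stand the 2 codons before it, and the sequences are those of the coding strand.
Itga1: aagattGGATTCTTCAAAAGG
Itga2: aagctcGGCTTCTTCAAAAGA
Itga3: aagtgcGGCTTCTTCAAGCGA
Itga6: aagtgtGGCTTCTTCAAGAGA
Itga5: aagctcGGCTTCTTCAAACGT
Itgav: aggatgGGCTTTTTCAAACGT
Itga9: aagatgGGCTTCTTCCGCAGA

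In each of the 7 genes the printed stretch is divided between neighbouring exons. For Itga6 it lies in exons 24 and 25 of 26 (chr2:71679848-71683895 of GRCm39 with the intron, plus strand), for Itga1 in exons 28 and 29 of 29 (chr13:115096653-115102136, minus strand) and for Itga2 in exons 29 and 30 of 30 (chr13:114973084-114973631, minus strand). Of the 15 bases of the motif, Itga6 shared 14 with Itga3 and 14 with Itga2, and Itga5 shared 14 with Itgav. Itga9 and Itgav, with 9, had the fewest in common. After the motif the tail went on for 8 codons in Itga1, the shortest, and for 30 in Itga3, the longest.

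In the beta tails, capitals mark the codons of the membrane-proximal and the membrane-distal motif of the form NxxY, to which talin and kindlin bind, respectively. They were found in the last exon of Itgb1 (exon 16, chr8:129458510-129458557, plus strand), of Itgb3 (exon 15, chr11:104557912-104557959, plus strand) and of Itgb5 (exon 15, chr16:33769033-33769104, plus strand).
Itgb1: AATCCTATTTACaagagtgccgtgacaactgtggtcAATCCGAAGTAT
Itgb3: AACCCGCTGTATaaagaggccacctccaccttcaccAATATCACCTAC
Itgb5: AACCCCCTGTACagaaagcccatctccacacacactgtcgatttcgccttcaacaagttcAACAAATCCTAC
The stretch from the first to the last of these codons has 48 bases in Itgb1 and in Itgb3, of which 23 (47.9%) are identical by position, and 72 bases in Itgb5. The high beta subunit Itgb1 and the low Itgb3 are thus of equal length here, and Itgb5 has the longer spacer.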

How the data were processed

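Ribosome-associated RNA from the hearts of 3 EC-RiboTag mice was sequenced with single reads of 72 bases. According to the submitters' processing notes, the authors used Trimmomatic 0.39, STAR 2.7.11a with mm39 (GRCm39), Picard 3.1.1, featureCounts 2.0.4 with strand, and DESeq2 1.36.0. The study's methods state that Picard served to remove duplicates. Multi-mapping reads and those of ribosomal or mitochondrial origin were also taken out before counting. The deposited values are a score, since the authors scaled the read counts with library size factors and deposited them as rounded whole numbers. No model for raw counts was therefore applied. Reads behind a value were estimated from the gaps that rounding leaves among values between 5 and 120.

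Lengths and coding sequences came from GENCODE M39 on GRCm39, whereas gene positions are those of the table. Levels were divided by the canonical transcript length, and the length of all annotated exons or no division served as alternatives. Ratios within each mouse were tested with a two-sided exact sign-flip test. Python 3.11.15 with numpy 2.4.6, pandas 2.3.3, biopython 1.88 and matplotlib 3.10.9 was used. The rule for named genes took the 10 subunits, every other integrin subunit in the table, the 3 highest genes, the lowest and the missing ones of each list, and the 3 genes nearest in level to Itgb1, Itga6 and Itga2. The most abundant gene by count and further members of a list were named after their values were seen. Members and lists were chosen with earlier results of these data known.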

Additional observations from a re-analysis of the deposited data

How the results depend on the processing

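The 8 ratios between subunits chosen for description kept their sign with exonic length, without division by length, with a pseudocount of 1 and without any mouse. Other scalings of a library cannot change a ratio within a mouse and say nothing here. Of all 45 pairs, 4 turned with exonic length, among them Itga6 over Itgb1 (0.39 to -0.72 on the log2 scale) and Itga1 over Itga9 (0.38 to -0.42), and 5 turned without division by length (both alternatives for the sign of all pairs chosen after seeing the data). The median of the 10 subunits over the median gene was 0.85 on the log2 scale, and it was 1.01 with exonic length, 1.5 without division by length and 1.05 with the mean over the genes. The sum of the 6 alpha subunits over Itgb1 (alternatives chosen after seeing the data) was 2.02 with exonic length and 3.35 without division by length. The median of the collagen genes over the median gene, -0.47, became 0.45 without division by length and 0.55 with the mean over the genes. That of the laminin chains, 0.08, was 0.80 with exonic length, 1.87 without division by length and 0.50 with the mean over the genes, and it ranged from -0.016 to 0.15 when a mouse was left out. The number of subunits with a CV over 20%, 1 with all mice, ranged from 0 to 3 when a mouse was left out, beside 4.84% of all genes without mouse 1, 9.86% without mouse 2 and 8.71% without mouse 3. The cause of these shifts was not tested. With 3 mice no exact p below 0.25 can arise, and values of Itga2 rest on few reads.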
